A study of Mus musculus with 4 samples.

Results

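The genes described here are the mouse zinc finger protein genes with a plain numbered symbol, Zfp followed by digits only, without Zfp36, which encodes an RNA-binding protein of another kind. They were selected on abundance: a gene was taken when its read counts summed over the 4 libraries to 200 or more. Of 34745 gene rows, 342 carried such a symbol and 241 reached the sum. All 241 passed the low-count filter, while of the 101 below the sum 49 did. The sum takes both genotypes together, and no contrast between genotypes was used as a limit. A gene near the limit could still reach it through the genotype where it was higher. Zfp9 reached it mainly through its counts in Setd2-CD4 cre, and Zfp11 and Zfp764 mainly through theirs in WT. The group was also proposed, with Zfp9 as its marker, when results of these data were already known.

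RNA was sequenced from T helper 17 (Th17) cells, the CD4+ T cells that make interleukin 17, grown for 3 days in polarizing medium from naive CD4+ T cells of the spleen of C57BL/6 mice. Wild-type (WT) mice gave 2 libraries, 13 and 15, and mice labelled Setd2-CD4 cre gave 2, 22 and 24. Setd2 is the methyltransferase that trimethylates lysine 36 of histone H3 along transcribed genes, and Cre driven by Cd4 sequences acts in T cells from the thymus onward. The sources used here name no age, no Cre-only control and no deleted exons, and do not say whether libraries of a genotype came from separate animals or cultures, so p-values reflect only how these samples differ, which could be a technical matter.

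Zinc finger proteins of this family bind DNA through arrays of C2H2 fingers, short loops each held by a zinc ion. Many carry a KRAB domain, which recruits the corepressor Trim28 and, through it, the H3K9 methyltransferase Setdb1, HP1 proteins and DNA methyltransferases. Their best known targets are endogenous retroviruses and other retroelements, and some guard imprinted genes. KRAB zinc finger genes arose by repeated duplication and lie in clusters, and the finger-coding 3′ exons of zinc finger genes are known to carry H3K9 trimethylation together with the H3K36 trimethylation that Setd2 places. Others among the numbered genes have no KRAB domain and are activators, ubiquitin ligases, ribosome assembly factors or spindle proteins.

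Libraries held 11007343 to 12518415 counts over 15882 to 16307 genes. Setd2 itself, summed over the whole gene, stood at 184 and 176 CPM (counts scaled by edgeR's TMM factors to a library of 1000000) in WT 13 and 15 against 144 and 153 CPM in Setd2-CD4 cre 22 and 24, and missed the threshold (log2 fold change -0.28, SE 0.10, adjusted p by edgeR = 0.0748). T cell markers were abundant in every library, with the 6 listed summing to 2582 to 3218 CPM and 4 of them lower in Setd2-CD4 cre. Of 5 Th17 markers, 3 were higher there, among them Il17a, and of all genes tested 16.2% were higher and 14.5% lower. Of 14 B cell markers, 12 were higher and none was lower, and they summed to 264 and 224 CPM in WT 13 and 15 and to 774 and 549 CPM in Setd2-CD4 cre 22 and 24. The B cell markers Cd79a, Ms4a1 and Pax5 alone summed to 16.2 and 12.9 CPM and to 97.0 and 54.4 CPM in the same order, with none at 0. In each other list the markers called numbered 1 of 3 tested for dendritic cells, 1 of 4 for CD8 T and NK cells, 1 of 3 for gamma-delta T cells, where it was Blk, which the B cell list also holds, 0 of 4 for macrophages and 0 of 2 for neutrophils, while no erythroid marker was tested. A lower level in such a culture cannot be told apart from fewer cells that express the gene, and the part of the B cell markers in the results below was not tested.

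In the Setd2-CD4 cre libraries the numbered Zfp genes lay lower on balance. With an adjusted p of 0.05 as the limit in the quasi-likelihood test of edgeR, 66 of the 241 were lower (27.4%) and 21 were higher (8.71%), while 154 did not pass. Over all 12927 genes tested, 30.7% were called, 14.5% lower and 16.2% higher. The median log2 fold change of the 241 was -0.29, beside -0.01 over all genes tested, and 163 of them (67.6%) had a negative value. The medians of the 4 pairwise ratios between a WT and a Setd2-CD4 cre library were -0.35, -0.24, -0.32 and -0.20 (SD 0.069 over the pairs, which share libraries). The genotypes did not overlap for 178 members (73.9%), beside 70.7% of all genes. Among the calls, changes of at least 2-fold numbered 24 downward and 5 upward. Without either WT library fewer genes were called, in like proportion among members and over all genes. A fit with 1 library left in a genotype takes its spread from the other genotype alone. The median of the members was -0.29 without WT replicate 13 and -0.30 without 15. It was -0.22 without Setd2-CD4 cre replicate 22 and -0.31 without 24. Other scalings gave 83 lower and 14 higher (upper-quartile factors) and 86 and 10 (library totals), but they also moved the median of all genes by -0.11 and -0.15 and the higher share of all calls from 52.7% to 37.4% and 32.9%. A change of scaling moves all genes by nearly the same amount, so it can hardly alter the median of the members minus that of all genes. That difference was -0.28 under each of these 3 scalings, but -0.20 without Setd2-CD4 cre replicate 22 and -0.19 with limma-trend on log2(FPKM + 1).

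**Figure D1:**
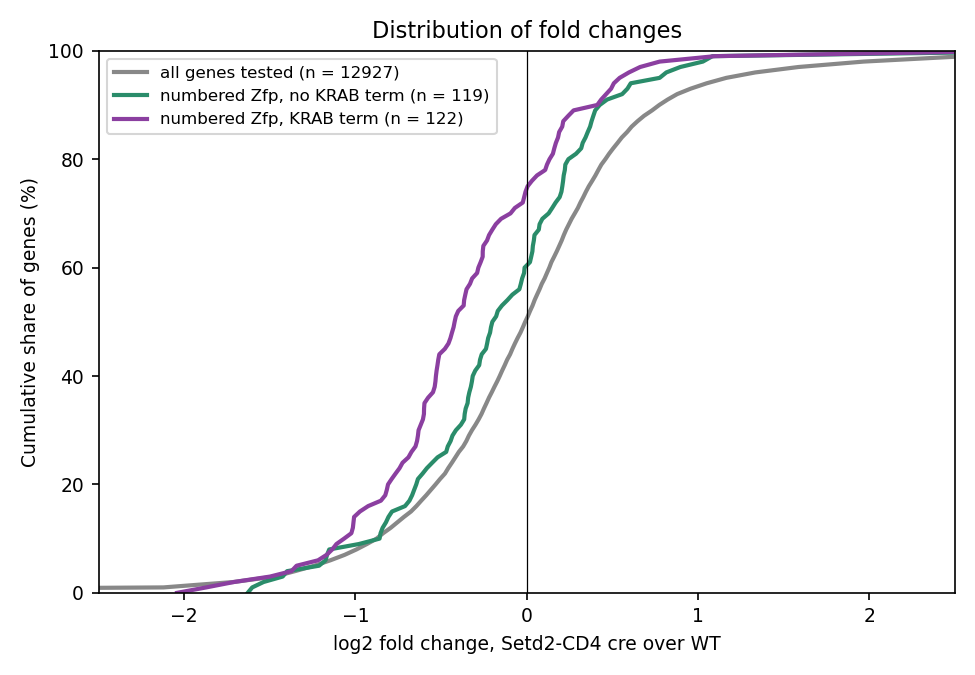
Cumulative share of genes (%) against log2 fold change, Setd2-CD4 cre over WT, for all 12927 genes tested, the 119 numbered Zfp genes without a KRAB term and the 122 with one. The curve of the KRAB genes lies left of that of all genes over most of its course, with its median at -0.42, and the other numbered genes lie between, with their median at -0.20, or at -0.05 without Setd2-CD4 cre replicate 22.

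Low counts go with negative fold changes in these libraries generally, and most of these genes are low. Their median level was 3.34 FPKM (fragments per kilobase of transcript, in a library scaled to 1000000), 197 of 241 were under 10 FPKM and 74 under 2 FPKM. The members were therefore split into 4 count classes of like size and set beside all tested genes of the same range. Among members with 200 to 541 counts, 18 of 61 were lower (29.5%) and 1 was higher (1.64%), where all genes of that range gave 21.5% lower and 9.79% higher. Between 542 and 971 counts, 24 of 60 were lower (40.0%) and 6 higher, beside 21.4% and 9.44% of all genes. Between 972 and 1983 counts, 17 of 60 were lower (28.3%) and 3 higher, beside 17.6% and 11.9%. Above that range the lean was gone: 7 of 60 members were lower (11.7%) and 11 higher (18.3%), beside 11.6% and 24.7% of all genes. Median log2 fold changes ran -0.46, -0.49, -0.33 and 0.09 from the lowest class to the highest, against -0.24, -0.18, -0.06 and 0.12 for all genes. Without Setd2-CD4 cre replicate 22 the -0.33 became -0.21, and without WT replicate 15 the 0.09 became 0.05. The median of the highest class turned to -0.06 with library totals, -0.05 with limma-trend and -0.02 with upper-quartile factors. Summed over all 241 members, to which the most abundant contribute most, the level was 8327 and 8247 CPM in WT and 7718 and 8153 CPM in Setd2-CD4 cre. The ratio of the Setd2-CD4 cre sums to the WT sums was 0.958 for members and 1.11 for all genes tested. Members held 0.872% and 0.873% of the library counts in WT 13 and 15. In Setd2-CD4 cre 22 and 24 they held 0.720% and 0.785%.

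**Figure D2:**
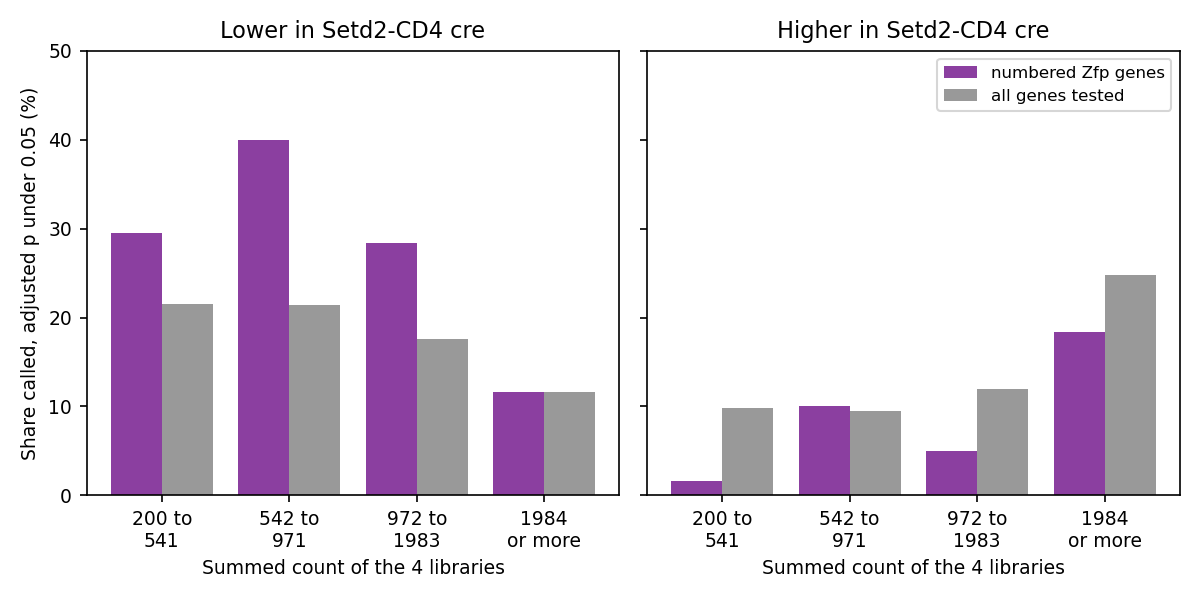
Share of genes called (%, edgeR adjusted p under 0.05) as lower (left) or higher (right) in Setd2-CD4 cre, by summed count of the 4 libraries, for numbered Zfp genes and for all genes tested in the same range. In the 3 lower ranges 28.3 to 40.0% of the numbered Zfp genes were lower, above the 17.6 to 21.5% of all genes, and in the highest range the shares were 11.7% and 11.6%.

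Few of the 21 rises were large, and a pair of them stood far from the rest. Zfp292, which encodes a large zinc finger protein without a KRAB term whose human counterpart is tied to neurodevelopmental disorders, stood at 18.4 and 15.0 CPM in WT 13 and 15 against 119 and 196 CPM in Setd2-CD4 cre 22 and 24. The log2 fold change was 3.24 (SE 0.28, adjusted p by edgeR = 0.00191), or 9.42-fold. The largest rises and falls named here were taken only from calls without overlap between genotypes. Zfp9, a KRAB zinc finger gene on chromosome 6 (118461950 to 118479320 in GRCm38), rose from 3.81 and 3.43 CPM to 27.8 and 25.9 CPM, which is 7.40-fold (log2 fold change 2.89, SE 0.19). Its 50 and 45 counts in WT became 285 and 283. As Zfp9 was singled out with these values in view, they are a description. The next largest change was that of Zfp52, a KRAB zinc finger gene and the most abundant member per length, at 110 and 101 CPM in WT and 263 and 213 CPM in Setd2-CD4 cre (1.17, SE 0.13, adjusted p = 0.00138).

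Zfp341, whose human counterpart ZNF341 drives transcription of STAT3, a factor needed for Th17 cells, stood at 13.4 and 11.3 CPM in WT against 28.3 and 24.2 CPM in Setd2-CD4 cre (1.09 on the log2 scale, SE 0.18, adjusted p by edgeR = 0.0044). Zfp516, known as an activator of the brown fat gene Ucp1, went from 11.9 and 11.8 CPM to 21.9 and 27.7 CPM (1.07, SE 0.18, adjusted p = 0.00511). Lack of overlap between genotypes was a condition for naming these genes. The other 5 of the 10 largest rises were Zfp775 (0.96, adjusted p = 0.0156), Zfp608 (0.84, 0.033), Zfp768 (0.84, 0.0272), Zfp120 (0.77, 0.00906) and Zfp97 (0.69, 0.018). Each of these 5 calls was lost without 1 or the other WT library: Zfp775 without WT replicate 13 (adjusted p by edgeR = 0.112), Zfp120 without WT replicate 15 (0.103), and Zfp608 (0.203 and 0.181), Zfp768 (0.168 and 0.0900) and Zfp97 (0.102 and 0.145) without either. The call of Zfp608 was also lost with upper-quartile factors (edgeR, 0.0517), library totals (0.0609), limma-trend (0.0675) and DESeq2 (0.0755), and that of Zfp768 with library totals (0.0556) and limma-trend (0.0803). In GENCODE release M21 exons of Zfp341, Zfp52, Zfp608 and Zfp775 overlap exons of other genes on the opposite strand, and for Zfp775 also on the same strand, and whether reads were counted by strand is not given in the sources used here.

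Falls were more numerous and more even in size. Zfp11 had the largest, from 5.72 and 7.99 CPM in WT to 1.95 and 1.38 CPM in Setd2-CD4 cre (-2.04 on the log2 scale, SE 0.36, adjusted p by edgeR = 0.00568), or 4.12-fold. Zfp764 went from 5.41 and 7.39 CPM to 1.95 and 1.47 CPM (-1.90, SE 0.35, adjusted p = 0.00684), and Zfp719 from 6.79 and 10.4 CPM to 1.95 and 3.12 CPM (-1.76, SE 0.35, adjusted p = 0.00962). All 3 are KRAB genes of low level, named on condition that their genotypes did not overlap. Without WT replicate 15 the calls of Zfp764 (adjusted p = 0.0590) and Zfp719 (0.0753) were lost.

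At higher levels Zfp60, a KRAB gene, went from 27.6 and 34.2 CPM to 9.94 and 9.81 CPM (-1.64 on the log2 scale, SE 0.18, adjusted p by edgeR = 0.00127). Zfp329, which has no KRAB term, went from 61.3 and 54.7 CPM to 18.7 and 24.8 CPM (-1.41, SE 0.17, adjusted p = 0.00157). Zfp831 fell from 48.9 and 47.5 CPM to 10.7 and 20.4 CPM (-1.63, SE 0.28, adjusted p = 0.0092). The pairs of values lie well apart in each, although in Zfp831 the Setd2-CD4 cre libraries differed more from each other than the WT ones. Zfp932, known for silencing a class of endogenous retroviruses with Trim28 although it lacks the deposited KRAB term, stood at 21.7 and 34.0 CPM in WT against 10.5 and 10.6 CPM in Setd2-CD4 cre (-1.39, SE 0.24, adjusted p = 0.00542), and leaving out Setd2-CD4 cre replicate 22 (0.0635) or 24 (0.0557) ended its call. Zfp579 (-1.61, adjusted p = 0.00217), Zfp738 (-1.44, 0.00242) and Zfp61 (-1.41, 0.00591) complete the 10 largest. Among members whose exons overlap those of another gene on the opposite strand in GENCODE release M21, Zfp738 had the lowest value.

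**Figure D3:**
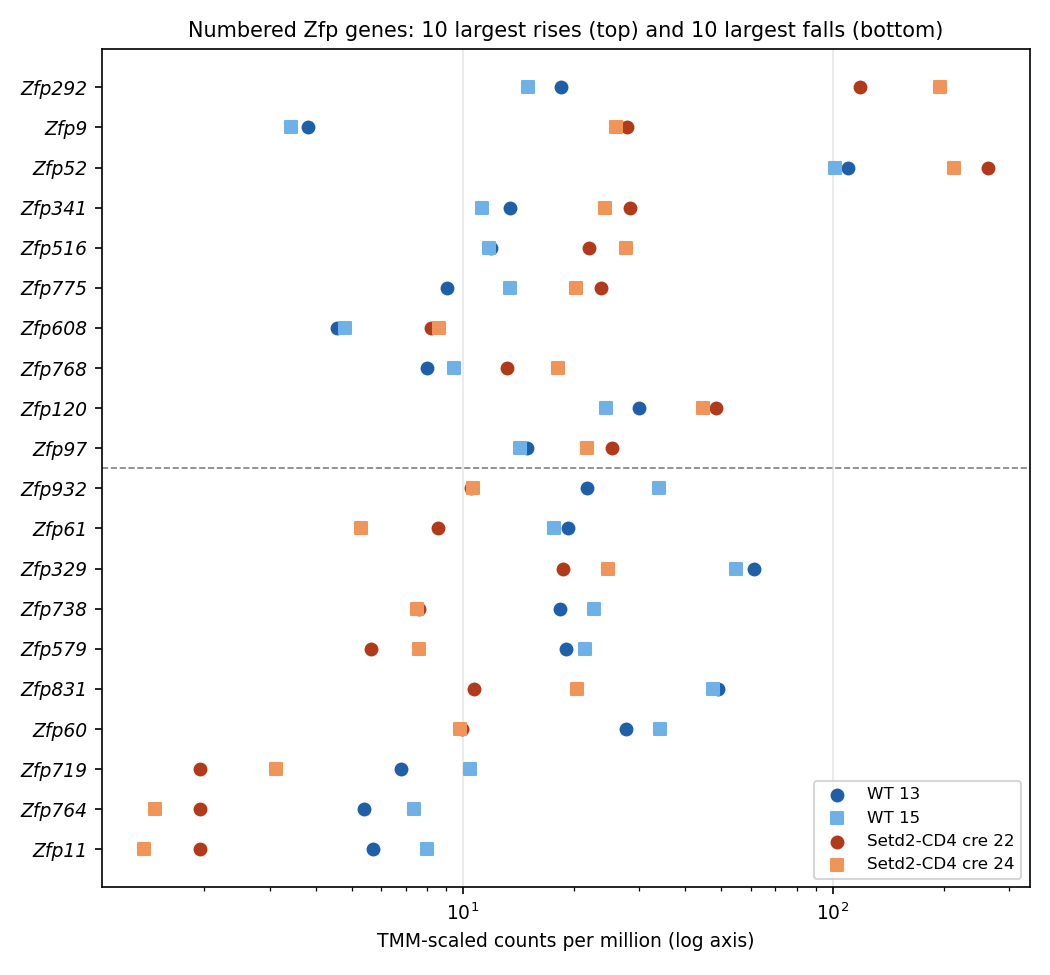
TMM-scaled CPM (log axis) in each library for the numbered Zfp genes with the 10 largest rises, above the dashed line, and the 10 largest falls, below it. Each point is 1 library. Zfp292 stands at 15.0 to 18.4 CPM in WT and 119 to 196 CPM in Setd2-CD4 cre, and Zfp11 at 5.72 to 7.99 and 1.38 to 1.95 CPM. Genes shown were chosen for not overlapping between genotypes.

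Of the 87 calls, 22 held in the reported fit and in all 9 refits with another scaling, filter, tool or 1 library left out. Upward these were Zfp292, Zfp9, Zfp52, Zfp341 and Zfp516. Downward they were 17, with Zfp11, Zfp60, Zfp831, Zfp579, Zfp738, Zfp329 and Zfp61 from the largest falls, and Zfp40, Zfp84, Zfp748, Zfp770, Zfp422, Zfp865, Zfp938, Zfp760, Zfp943 and Zfp397, of which the 7 from Zfp770 on are named for holding in these refits. No called member changed sign in any of those refits. In GENCODE release M21 exons of Zfp865 overlap exons of another gene on the same strand.

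Promoters of members were poorer in CpG than those of other genes. A sequence in RefSeq (GRCm38.p6) was matched for 198 of the 241 members and for 9324 of all genes tested, and the 250 bases before the start were read. The start lay within 1000 bases of the deposited one for 181 of the 198, and all 198 were kept in the medians. Median GC content was 54.2% in members and 60.0% in all genes tested, and the median number of CpG was 12 and 16. Genes with the KRAB term had a median of 9.5 CpG (n = 106) and the other members 14 (n = 92). The 50 lower members had a median of 10 and the 17 higher ones 14, a difference that was not tested. To show the range of sequence among the genes that moved, 4 of these stretches are given with each CpG in capitals, 5′ to 3′ on the gene's strand: Zfp292 (chr4:34882949-34883198, minus strand, 21 CpG) and Zfp341 (chr2:154613118-154613367, plus strand, 28 CpG), which rose, and Zfp11 (chr5:129670089-129670338, minus strand, 16 CpG) and Zfp764 (chr7:127406823-127407072, minus strand, 2 CpG), which fell.
Zfp292: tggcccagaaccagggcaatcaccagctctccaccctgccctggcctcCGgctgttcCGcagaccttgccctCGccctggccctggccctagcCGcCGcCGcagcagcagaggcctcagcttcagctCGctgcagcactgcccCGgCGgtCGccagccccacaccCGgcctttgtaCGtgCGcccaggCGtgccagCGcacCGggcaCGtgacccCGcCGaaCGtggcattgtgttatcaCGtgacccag
Zfp341: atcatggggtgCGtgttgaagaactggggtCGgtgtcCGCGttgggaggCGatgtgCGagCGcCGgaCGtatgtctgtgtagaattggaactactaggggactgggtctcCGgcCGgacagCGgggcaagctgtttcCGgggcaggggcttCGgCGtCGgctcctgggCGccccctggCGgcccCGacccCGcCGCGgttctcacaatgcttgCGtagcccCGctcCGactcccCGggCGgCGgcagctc
Zfp11: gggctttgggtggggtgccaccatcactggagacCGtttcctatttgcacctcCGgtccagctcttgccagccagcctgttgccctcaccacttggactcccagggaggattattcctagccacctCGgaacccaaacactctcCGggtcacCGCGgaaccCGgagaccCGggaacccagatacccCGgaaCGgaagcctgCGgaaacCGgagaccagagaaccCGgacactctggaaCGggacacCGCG
Zfp764: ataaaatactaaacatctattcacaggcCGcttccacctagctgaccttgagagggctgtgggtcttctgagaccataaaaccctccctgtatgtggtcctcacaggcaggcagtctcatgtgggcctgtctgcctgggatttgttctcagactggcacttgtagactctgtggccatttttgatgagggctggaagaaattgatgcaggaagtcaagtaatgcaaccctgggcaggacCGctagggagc

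In these 4 stretches the genes that rose hold more CpG than those that fell. They were chosen with the direction of change known, so the order is a description. They belong to the largest rises and falls whose matched start lay within 1000 bases of the deposited one. Zfp52, a larger rise than Zfp341, fell outside that rule, and its matched window holds 4 CpG, fewer than that of Zfp11. Zfp9, also a larger rise than Zfp341, had no matched promoter sequence. Short motifs were searched on both strands in the same windows. The GC box GGGCGG was found in 45.5% of member promoters and 60.1% of all, and in 16 of 50 lower (32%) and 7 of 17 higher members (41.2%). The CCAAT box was found in 49.5% of members and 37.1% of all, and the ETS motif CCGGAAG in 17.2% and 14.8%. ACTACAA, the core of the site of Zfp143, was found in 5.56% and 4.11%, AAGATGGC, a YY1 site, in 1.52% and 2.13%, TGACGTCA, the cyclic AMP response element, in 3.54% and 2.82%, and TATAAA in 5.56% and 6.02%. Members with a GC box had a median log2 fold change of -0.22 (n = 90) and those without -0.38 (n = 108). Of the printed stretches, Zfp341 holds 1 CCAAT box and 1 GC box, and the other 3 hold none of the 7 motifs. A match is a run of letters and not a measured site.

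The deposited orthology column gives 122 members the term for a KRAB domain zinc finger protein. Of these 37 were lower (30.3%) and 9 higher (7.38%), beside 14.5% and 16.2% of all genes tested. The median log2 fold change of the KRAB genes was -0.42. Of the 119 members without the term 29 were lower (24.4%) and 12 higher (10.1%), with a median of -0.20. Without Setd2-CD4 cre replicate 22 the latter median was -0.05, beside -0.02 for all genes, while that of the KRAB genes stayed at -0.42. Genes with the term were expressed at lower levels, with a median of 2.53 FPKM beside 3.99 FPKM, and 43 of the 61 members in the lowest count class have it but 15 of the 60 in the highest. In the lower 3 count classes, from the lowest up, the medians with the term were -0.54, -0.52 and -0.40, and without it -0.32, -0.37 and -0.16. In the highest they were 0.16 and 0.02. The order was not kept in every refit: without Setd2-CD4 cre replicate 24 the second class stood at -0.58 with the term and -0.65 without. The difference between the classes was not tested, and the term is not complete, since Zfp445 and Zfp932, both known KRAB proteins, lack it.

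Members joined at gaps of at most 500 kb formed 21 clusters of 3 or more, which held 126 of the 241 genes. In clusters 38 members were lower (30.2%) and 7 higher (5.56%), beside 14.5% and 16.2% of all genes tested. The median log2 fold change in clusters was -0.36. Outside them 28 of 115 were lower (24.3%) and 14 higher (12.2%), with a median of -0.21. That median was -0.06 without Setd2-CD4 cre replicate 22 and -0.14 without WT replicate 13. Clustered members were expressed at lower levels, with a median of 2.48 FPKM beside 3.99 FPKM outside clusters. The KRAB term went with the lower median both inside clusters (-0.42 with, -0.24 without) and outside (-0.42 and -0.10), where the value without the term was -0.02 without Setd2-CD4 cre replicate 22. The median was below 0 in 20 of the 21 clusters, and in 19 to 21 of them over the alternative fits. At least 1 member was called in 19 clusters: 14 had lower calls only, 5 had calls in both directions and 0 had higher calls only. Of 105 adjacent pairs 13 had both members called, 10 in the same direction and 3 in opposite directions. As 38 clustered members were lower and 7 higher, pairs of the same direction would outnumber the others without any link between neighbours. Such a link was not tested.

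**Figure D4:**
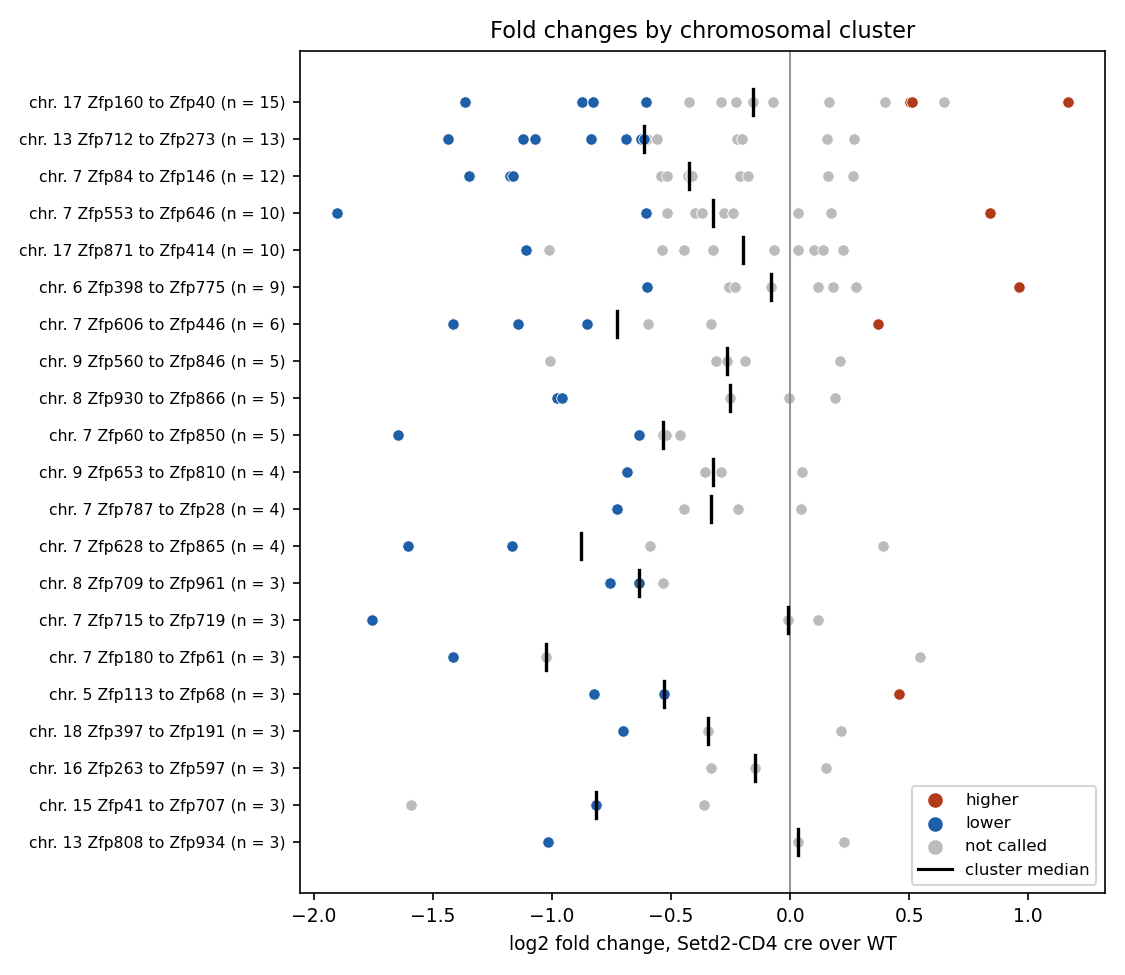
Log2 fold change, Setd2-CD4 cre over WT, of each numbered Zfp gene in the 21 chromosomal clusters, with the number of genes in each cluster. Points are genes, coloured by call (edgeR adjusted p under 0.05), and bars are cluster medians. In 20 of the 21 clusters the median lies below 0, and called genes of both colours share 5 clusters.

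The cluster with most falls lay on chromosome 13 (67038594 to 67827002, Zfp712 to Zfp273), where 7 of 13 members were lower, none was higher and the median log2 fold change was -0.61. Zfp738 went from 18.3 and 22.7 CPM to 7.60 and 7.52 CPM. Zfp748 went from 25.4 and 28.9 CPM to 12.1 and 13.8 CPM (-1.07, SE 0.17, adjusted p by edgeR = 0.00386). In both genes each WT value exceeded each Setd2-CD4 cre value. The other 5, named after their values were seen, were Zfp953 (-1.12, adjusted p = 0.00659), Zfp87 (-0.84, 0.0108), Zfp65 (-0.69, 0.0436), Zfp595 (-0.63, 0.0257) and Zfp456 (-0.61, 0.0486). Of the 13 genes 11 carry the KRAB term, and 2 of the 13 had positive values, up to 0.27.

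On chromosome 17 (21008941 to 23193252, Zfp160 to Zfp40) 15 members moved apart, with 3 higher, 4 lower and a median log2 fold change of -0.16, which turned to 0.03 without Setd2-CD4 cre replicate 22. Zfp52 was higher, as given above. Zfp40, a KRAB gene like it, went from 25.2 and 27.2 CPM to 11.9 and 8.44 CPM (-1.37, SE 0.20, adjusted p by edgeR = 0.00326). Between these genes and named after their values were seen lie Zfp948, next to Zfp52 at a gap of 4.98 kb and also higher (0.51, adjusted p = 0.0315), and Zfp760, lower (-0.87, 0.0068). Zfp51 was the other higher gene (0.50, 0.0177). Zfp53, the second most abundant member per length, also lies here and did not pass, at 97.6 and 98.8 CPM in WT and 107 and 112 CPM in Setd2-CD4 cre (0.16, adjusted p = 0.271).

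Chromosome 7 holds 59 members, more than any other, of which 17 were lower (28.8%) and 3 higher (5.08%), beside 27.4% and 8.71% of all members. The shares of all genes tested were 14.5% and 16.2%. In the cluster Zfp84 to Zfp146 (29768552 to 30169727), 3 of 12 were lower and none higher, with a median log2 fold change of -0.42. Zfp84, a KRAB gene, went from 18.9 and 18.4 CPM to 8.09 and 8.44 CPM (-1.18, SE 0.18, adjusted p by edgeR = 0.00367), and replicates lay close together in both genotypes. Zfp27 went from 9.99 and 14.2 CPM to 3.41 and 6.05 CPM (-1.35, SE 0.32, adjusted p = 0.0183), a call lost without WT replicate 15 (0.121). Zfp60 to Zfp850 (27731389 to 28014115) had 5 members, all negative and 2 called, Zfp60 and Zfp626, the latter at 30.7 and 26.3 CPM in WT and 18.9 and 17.9 CPM in Setd2-CD4 cre (-0.63, adjusted p = 0.0191, and 0.186 and 0.0771 without WT replicate 13 or 15).

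Zfp606 to Zfp446 (chromosome 7, 12478293 to 12984340) held neighbours that moved in opposite directions. Zfp329 was lower, as was Zfp606, from 22.3 and 28.5 CPM to 9.64 and 13.3 CPM (-1.14, SE 0.22, adjusted p by edgeR = 0.00769). Zfp110, which encodes the neurotrophin receptor partner Nrif1, lies 15.9 kb from Zfp329 and was higher (0.37, SE 0.11, adjusted p = 0.039). It was named after its values were seen. In Zfp553 to Zfp646 (127233061 to 127885996) Zfp764 was lower and Zfp768 higher, and Zfp646 went from 63.7 and 69.8 CPM to 45.1 and 42.5 CPM (-0.61, adjusted p = 0.00996), with 1 higher and 2 lower among 10 members. Without WT replicate 15 the calls of Zfp606 (0.0573) and Zfp646 (0.114) were lost.

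The remaining clusters of 5 or more members lay on chromosomes 8, 17, 6 and 9. In the cluster on chromosome 8, 2 of 5 members were lower. On chromosome 8 (69226343 to 69791178, Zfp930 to Zfp866) Zfp866 went from 48.1 and 47.9 CPM to 18.6 and 30.8 CPM (-0.96, SE 0.23, adjusted p by edgeR = 0.0197) and Zfp963 from 9.84 and 6.55 CPM to 4.09 and 4.22 CPM (-0.98, SE 0.29, 0.0382). Both share exons on the same strand with the model Gm20422, and both calls were lost without WT replicate 13 (0.0569 and 0.322) or 15 (0.0661 and 0.0586), that of Zfp963 also with DESeq2 (0.0702). On chromosome 17 (32771236 to 33631779, Zfp871 to Zfp414) Zfp763 was the single call of 10 members, at 12.4 and 14.1 CPM in WT and 5.07 and 7.15 CPM in Setd2-CD4 cre (-1.11, adjusted p = 0.0127, and 0.097 without WT replicate 15), while Zfp799 had a value of -1.01 (0.0576), which passed in 6 of 9 refits, at -0.59 without Setd2-CD4 cre replicate 22 and -1.60 without 24. On chromosome 6 (47835661 to 48623227, Zfp398 to Zfp775) Zfp775 was higher and Zfp282 lower (-0.60, 0.0337, but 0.171 and 0.182 without WT replicate 13 or 15 and 0.0705 by DESeq2), and the median of 9 members was -0.08, or 0.10 and -0.28 without Setd2-CD4 cre replicate 22 or 24 and -0.01 and -0.15 without WT replicate 13 or 15. None of 5 members passed on chromosome 9 (20345136 to 20595194, Zfp560 to Zfp846), where Zfp26 stood at 52.9 and 52.7 CPM in WT against 16.6 and 35.8 CPM in Setd2-CD4 cre (-1.01, 0.101). It passed by DESeq2 (0.00943) and limma-trend (0.0405). Its value was -0.55 without Setd2-CD4 cre replicate 22 and -1.67 without 24, fits that do not take in the spread between these 2 libraries.

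Of 24 members listed for a role known from other work, 5 were higher, Zfp292 among them, 1 was lower and 18 did not pass. Over all genes tested 16.2% were higher and 14.5% lower, and in the highest count class 24.7% and 11.6%. Zfp335, which is needed for the maturation of naive T cells, stood at 64.0 and 57.3 CPM in WT against 81.9 and 92.0 CPM in Setd2-CD4 cre (0.52 on the log2 scale, SE 0.12, adjusted p by edgeR = 0.0173). Zfp143, an activator that binds promoters, stood at 66.2 and 64.7 CPM and at 94.1 and 103 CPM (0.59, SE 0.11, adjusted p = 0.00827). Zfp598, a ubiquitin ligase that marks collided ribosomes, stood at 89.1 and 89.8 CPM and at 145 and 124 CPM (0.59, SE 0.12, adjusted p = 0.00991). All 3 were higher with no overlap between genotypes, and all 3 calls were lost without WT replicate 13 (0.0769, 0.0724 and 0.0818) or 15 (0.191, 0.0958 and 0.087). That of Zfp335 was also lost with library totals (0.0585) and limma-trend (0.0752). Exons of Zfp335 overlap those of Pcif1 on the opposite strand. Zfp608, known for repressing the Rag genes in thymocytes, was higher as given above. Zfp609, a partner of Nipbl and Integrator, was lower, at 63.7 and 69.5 CPM in WT and 48.8 and 49.6 CPM in Setd2-CD4 cre (-0.44, adjusted p = 0.0287, and 0.122 and 0.263 without WT replicate 13 or 15).

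The other members of this list did not pass with all libraries. For some, values with 1 Setd2-CD4 cre library left out are added, and p-values of such fits reflect the spread of the WT pair alone. Zfp318, which in B cells permits expression of IgD, stood at 62.8 and 56.9 CPM in WT and 45.2 and 57.4 CPM in Setd2-CD4 cre (-0.22, adjusted p by edgeR = 0.285, and -0.40, 0.014 without replicate 24), beside the rise of the B cell markers. Zfp217, a partner of the corepressor CtBP, stood at 114 and 106 CPM and at 79.2 and 93.9 CPM (-0.35, adjusted p = 0.069), and it passed with upper-quartile factors (0.0272), library totals (0.0259) and limma-trend (0.041) and without replicate 24 (-0.47, 0.0013). Zfp281, a factor of pluripotent cells, stood at 144 and 139 CPM and at 152 and 203 CPM (0.33, 0.121), with a value of 0.53 without replicate 22 and 0.11 without replicate 24. Values near 0 were found for Zfp91, a ubiquitin ligase (-0.01, SE 0.10), Zfp148, also called ZBP-89 (0.03, SE 0.10), the RNA-binding Zfp106 (-0.01, SE 0.11), Zfp326 of the DBIRD complex (-0.02, SE 0.13), Zfp644, a partner of G9a (-0.04, SE 0.12), and the spindle protein Zfp207 (-0.10, SE 0.12, and -0.25, adjusted p = 0.0306 without replicate 24). The 60S ribosome factors Zfp622 (0.30, adjusted p = 0.125, and 0.40, 0.0128 without replicate 24) and Zfp593 (0.07, 0.792) did not pass, nor did Zfp746, a repressor targeted by parkin (0.18, 0.317), Zfp266 (0.21, 0.174), Zfp800 (0.02, 0.922), Zfp260 (-0.21, 0.44, and -0.51, 0.00744 without replicate 22) and Zfp263 (0.15, 0.835). Zfp809, which silences murine leukemia viruses through Trim28, stood at 24.3 and 23.8 CPM and at 21.9 and 28.0 CPM (0.05, 0.831). Zfp57, which guards imprints, did not reach the summed count.

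Per length, 5 members led the group over the 4 libraries: Zfp52 with a mean of 77.3 FPKM, Zfp53 with 50.4, Zfp330, a nucleolar protein, with 36.2, Zfp445, a keeper of imprints, with 35.8, and Zfp207 with 34.4. Of these Zfp52 alone passed the test. Zfp445 stood at 121 and 120 CPM in WT against 72.2 and 107 CPM in Setd2-CD4 cre (log2 fold change -0.42, adjusted p by edgeR = 0.115). Its genotypes did not overlap, but the Setd2-CD4 cre libraries lay far apart, and the value without replicate 24 was -0.73. Zfp330 stood at 51.2 and 55.1 CPM and at 73.8 and 63.8 CPM (0.37, adjusted p by edgeR = 0.0594), with a value of 0.48 without Setd2-CD4 cre replicate 24. At the other end of the summed count, Zfp449 with 202 and Zfp764 with 204 counts were just inside the limit, with log2 fold changes of 0.11 and -1.90, and Zfp109 with 192 and Zfp750 with 190 were just outside, with -1.23 and -0.75.

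Replicates differed more in Setd2-CD4 cre than in WT. The median absolute log2 ratio between replicates was 0.13 in WT and 0.25 in Setd2-CD4 cre over the members, and 0.11 and 0.20 over all tested genes with at least 200 counts. Between WT 13 and 15, 6 members differed more than 2-fold, and between Setd2-CD4 cre 22 and 24, 10 did. The widest, named after their values were seen, were Zfp46, at 16.5 and 3.27 CPM in WT, Zfp12, at 43.4 and 11.6 CPM in WT, Zfp180, at 34.6 and 9.44 CPM in Setd2-CD4 cre, and Zfp41, at 3.31 and 10.3 CPM in Setd2-CD4 cre. Zfp131, a BTB zinc finger protein, stood at 29.4 and 80.0 CPM in WT against 100 and 90.8 CPM in Setd2-CD4 cre (0.81, SE 0.58, adjusted p by edgeR = 0.378). Its value was 1.70 without WT replicate 15, a fit that does not take in the spread between the WT libraries. None of these 5 passed with all libraries.

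Reads can be shared between near-identical zinc finger genes and between overlapping genes, and how such reads were counted is not given in the sources used here. In GENCODE release M21 exons of 79 members overlap exons of another gene, of 24 on the same strand and of 62 on the opposite strand. Among the 162 members without any such overlap 43 were lower (26.5%) and 14 higher (8.64%), with a median log2 fold change of -0.32, close to the values over all members.

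Transcripts of the proteins through which KRAB zinc finger proteins act were also counted, while the proteins themselves were not measured. Trim28 did not pass (0.20, adjusted p by edgeR = 0.178). Of 32 corepressor and silencing genes listed, all were tested, 4 were higher and 9 lower, with a median of 0.02. The shares of all genes tested were 16.2% higher and 14.5% lower, and the difference from the list was not tested. Setdb1, the H3K9 methyltransferase, stood at 95.0 and 89.6 CPM in WT against 135 and 132 CPM in Setd2-CD4 cre (0.54, SE 0.11, adjusted p = 0.00922). Trim24, a relative of Trim28, stood at 126 and 118 CPM and at 222 and 210 CPM (0.83, SE 0.11, adjusted p = 0.0019). Dnmt1, the maintenance DNA methyltransferase, stood at 334 and 371 CPM and at 192 and 218 CPM (-0.78, SE 0.12, adjusted p = 0.00337). The genotypes did not overlap for 24 of the 32 listed genes, these 3 among them, beside 70.7% of all genes tested. Also lower were Uhrf1, the partner of Dnmt1 (-0.64), Cbx5, an HP1 protein (-0.86), Morc2a (-0.83) and, of the HUSH complex that silences retroelements, Fam208a (-0.46) and Pphln1 (-0.57), while Mphosph8 of the same complex had a positive value and did not pass (0.27, adjusted p = 0.0871). Apart from Trim28, the genes of this list were named after their values were seen. Without WT replicate 13 the list gave 2 higher and 3 lower, and without WT replicate 15 it gave 1 and 2.

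Other zinc finger families differed in their counts, which stand beside 16.2% higher and 14.5% lower over all genes tested. Among 16 numbered Zfp genes with a letter suffix and at least 200 counts, 6 were lower and 1 higher, with a median log2 fold change of -0.41. The Zkscan, Zscan and Rslcan genes, which share C2H2 fingers with or without KRAB and SCAN domains, had 3 of 18 lower (16.7%) and 0 higher at a median of -0.35. The Zbtb genes, in which a BTB domain takes the place of KRAB, had 10 of 38 higher (26.3%) and 8 lower (21.1%) at a median of 0.07. The Klf genes had 4 higher and 4 lower of 11 (36.4% each). None of 3 tested genes of the Zfp36 family was called. The differences between families were not tested.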

How the data were processed

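RNA-seq of 4 Th17 libraries was used. The authors deposited whole-number counts per gene and FPKM values, per the file headers. Bowtie2, RSEM, GRCm38.p6 and mm10 are named in the submitters' processing notes, without versions or roles. Whether RSEM estimates were rounded to these counts, and how shared reads and strand were treated, is not given in the sources used here. The deposited FPKM followed from count, library total and a fixed length per gene within 0.00158% over 9864 genes. Groups and replicate names came from the sample titles, and for 1 sample the title (15) was followed where its cell type label starts with 14.

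In the order WT 13, WT 15, Setd2-CD4 cre 22, Setd2-CD4 cre 24, library totals were 12518415, 12414098, 11007343 and 11322621 and TMM factors 1.05, 1.06, 0.934 and 0.964. Where a library has no count, up to 3 counts remain possible, or 0.240, 0.242, 0.273 and 0.265 CPM, a limit of counting error only. Members had at least 15 counts in every library. The deposited counts went unchanged into edgeR 4.0.16, run in R 4.3.3 (TMM factors, filterByExpr by genotype, robust quasi-likelihood fit, Benjamini-Hochberg adjustment over 12927 genes, threshold 0.05), a script tested on simulated data. SE is the log2 fold change divided by the square root of F. With 2 libraries a genotype, single genes were tested only in this model. Alternatives were upper-quartile factors, library totals, no filter, DESeq2 1.42.0, limma-trend (limma 3.58.1) on log2(FPKM + 1), and each library left out. The last leaves 1 library in a genotype, so p-values there reflect the spread of the other genotype alone.

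Members and lists were chosen with earlier results of these data known. A marker gene of the lists is not reported here and was left out of their sums. Named genes are Zfp9, the 10 largest rises and 10 largest falls among calls without overlap and with at least 2 CPM in the higher genotype, the 5 highest by FPKM, the 2 on each side of the summed count, the 2 of smallest p in each cluster of 5 or more members, and 25 genes of known role. The limit of 5 was set after the data were seen. Clusters used the deposited locus column, in GRCm38, whose start equals that of GENCODE M21 for 189 of 241 members. A planned classification by protein pattern was replaced by the KRAB term of the deposited orthology column, as protein sequences were not used here.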

Additional observations from a re-analysis of the deposited data

How the results depend on the processing

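Among numbered Zfp genes, lower calls outnumbered higher ones in all 9 refits, and the median log2 fold change stayed negative. It was -0.40 with upper-quartile factors and -0.44 with library totals, and ran from -0.31 to -0.22 with 1 library left out. The higher calls were 10 with library totals, 11 with limma-trend and 7 to 32 with 1 library left out, and the lower calls 23 to 100 in the last case. Without the members whose exons overlap another gene, an alternative chosen after seeing the data, 43 were lower. Leaving out a WT library removed most calls, and 34 of 87 stayed without WT replicate 13 and 28 without 15.

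Over all genes, higher calls were 1267 with limma-trend and 718 to 3068 with 1 library left out, and lower calls 2879 with library totals and 564 to 2903. Upper-quartile factors, library totals and limma-trend moved the median of all genes by -0.11, -0.15 and -0.11, and the higher share of all calls, 52.7% as reported, became 37.4, 32.9 and 31.6%. In clusters, higher members were 2 with library totals, 3 with limma-trend and 1 to 11 with 1 library left out, and lower members 15 to 54. Among KRAB members these were 3, 4 and 2 to 11, with 12 to 55 lower, and among members without the term 7, 7 and 4 to 22, with 11 to 45 lower. Corepressor genes had 2 higher with upper-quartile factors, library totals or limma-trend and 1 to 8 with 1 library left out, with 2 to 12 lower. Zbtb genes had 5 lower by DESeq2 and 1 to 9 with 1 library left out. The Zkscan, Zscan and Rslcan genes had 6 lower with upper-quartile factors, 8 with library totals, 5 with limma-trend and 2 to 6 with 1 library left out, with 1 higher by DESeq2 and 0 to 1 in the last case. Klf genes had 1 to 5 higher and 2 to 4 lower with 1 library left out.

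Signs turned only in named genes that had not passed. With upper-quartile factors, library totals and limma-trend in turn the log2 fold changes were -0.086, -0.13 and -0.12 for Zfp148, -0.038, -0.079 and -0.058 for Zfp593, -0.092, -0.13 and -0.12 for Zfp800, -0.060, -0.097 and -0.10 for Zfp809 and -0.0012, -0.041 and -0.015 for Zfp449. Zfp263 gave -0.0088 with library totals and -0.034 with limma-trend. With 1 library left out the values ran from -0.25 to 0.034 for Zfp207, -0.46 to 0.59 for Zfp263, -0.027 to 0.085 for Zfp148, -0.060 to 0.044 for Zfp91, -0.094 to 0.075 for Zfp106, -0.057 to 0.21 for Zfp593, -0.072 to 0.026 for Zfp326, -0.081 to 0.12 for Zfp800, -0.51 to 0.048 for Zfp260, -0.13 to 0.22 for Zfp809 and -0.14 to 0.40 for Zfp449. The cause of these differences was not tested. No paired analysis was possible because the groups share no replicate number. With 2 libraries a genotype and members of as few as 15 counts in a library, a gene that did not pass is not shown to be unchanged.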
